A study of Rattus norvegicus with 4 samples.

Results

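The cells described here are endothelial cells of the rat liver with transcripts of at least 2 of Vwf (von Willebrand factor) and the selectin genes Selp and Sele. Whether each of them lined a larger vessel was not tested. A barcode of a single-cell library was kept with at least 200 genes, at least 500 UMIs (unique molecular identifiers, each standing for 1 captured transcript) and at most 20% mitochondrial UMIs. It counted as a vascular cell when it held a UMI of at least 2 of Vwf, Selp and Sele and of at least 2 of the endothelial genes Flt1, Egfl7, Kdr, Pecam1 and Cdh5, with 0 UMIs of the leukocyte gene Ptprc and of the Kupffer cell gene Clec4f. Pecam1 was not analysed here, so Flt1, Egfl7, Kdr and Cdh5 carried the endothelial side of the rule. It found 186 of 35901 kept barcodes: 90 of 11616 in the NEVLPcty library, 83 of 10186 in NEVLP2, 13 of 10798 in CS and 0 of 3301 in naive liver.

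All libraries came from livers of Lewis rats and were made with 10x Genomics droplets, 1 library for each group. NEVLPcty and NEVLP2 livers were perfused outside the body for 4 hours at 37 °C, CS livers were kept cold for 4 hours at 4 °C, and naive livers were a further control. The study design names perfusion with and without added IL-10 and TGF-β. NEVLPcty is read here as the liver given both cytokines and NEVLP2 as the liver given neither, which the sample labels do not spell out. Both perfusions shared a William's E medium with packed Lewis red cells, human albumin, antibiotics, pyruvate, glutamine, heparin, papaverine, insulin and hydrocortisone, a glucocorticoid. With 1 library for each group there is no replicate, so no difference was tested: each treatment cannot be told apart from its animal, digestion and library. The intervals given cover counting error only.

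Von Willebrand factor is a large glycoprotein that tethers platelets, and endothelial cells store it with P-selectin, the product of Selp, in Weibel-Palade bodies from which both reach the surface within minutes. E-selectin, the product of Sele, is made afresh after inflammatory signals that act through NF-kB, and both selectins slow passing leukocytes so that they roll along the vessel wall. In the liver the sinusoidal endothelium, which is fenestrated and takes up waste from the blood, makes little of these proteins, while hepatic arteries, portal veins and central veins line themselves with them.

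Vascular cells made up 0.775% of kept barcodes in NEVLPcty (exact binomial 95% interval 0.623 to 0.952%) and 0.815% in NEVLP2 (0.65 to 1.01%). The intervals of both perfused libraries overlapped over most of their length. In CS the share was 0.12% (0.0641 to 0.206%), and the 0 cells of naive liver allow a share of up to 0.0909%, counting 3 cells as the limit of a 0, or 0.112% by the exact binomial bound. Naive liver also held only 56 other endothelial cells, against 6815 in NEVLPcty, 2233 in NEVLP2 and 4000 in CS, so the same 0 allows up to 5.36% of its endothelium at 3 cells, or 6.38% by the exact bound. Set against all endothelial cells of the library, vascular cells were 1.3% in NEVLPcty (1.05 to 1.6%) and 3.58% in NEVLP2 (2.86 to 4.42%). In CS they were 0.324% (0.173 to 0.553%), and these intervals did not overlap.

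The rule rests on which genes were detected, and the gene that brought a cell in differed between libraries. All 3 of Vwf, Selp and Sele were found in 26 cells of NEVLPcty, 39 of NEVLP2 and 2 of CS. Vwf with Selp alone gave 40 cells in NEVLPcty, 25 in NEVLP2 and 10 in CS, and Vwf with Sele alone gave 22, 8 and 1 cells in the same libraries. Selp with Sele and no Vwf gave 2 cells in NEVLPcty and 11 in NEVLP2. All of these cells held the sinusoidal gene Lyve1, against 52.3% of vascular cells with Vwf in NEVLPcty and 41.7% in NEVLP2. Whether the cells without Vwf line larger vessels was not tested. Just outside the rule lay 288 endothelial cells of NEVLPcty, 135 of NEVLP2 and 177 of CS with a UMI of 1 of the 3 genes, and that gene was Vwf in 237, 33 and 176 of them. Just inside it, 4 cells of NEVLPcty and 3 of NEVLP2 held no more than 2 UMIs of the 3 genes together. Endothelial cells with Vwf numbered 325 in NEVLPcty, 105 in NEVLP2 and 189 in CS, and 27.1%, 68.6% and 6.88% of these also held a selectin. The rule therefore keeps mainly the selectin-bearing share of a Vwf-bearing endothelium that was well represented in CS too. Excluding Ptprc and Clec4f removed 4 barcodes with 2 vascular genes in NEVLPcty, 28 in NEVLP2 and 5 in CS.

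Depth bears on a rule of detection. The median vascular cell held 8056 UMIs in NEVLPcty, 9324 in NEVLP2 and 6748 in CS, against 5453, 5093 and 5148 in the other endothelial cells of those libraries, and summed UMIs came to 788683, 786224 and 106882. With every barcode thinned to 2000 UMIs before the rule was applied, it chose 53 cells in NEVLPcty, 60 in NEVLP2 and 10 in CS, of which 51, 49 and 8 were among the vascular cells described here. The median mitochondrial share of vascular cells was 1% in NEVLPcty, 1.82% in NEVLP2 and 3.67% in CS, and 7, 3 and 2 of them were among the barcodes with the highest doublet scores. The part of depth and of these measures in the results was not tested. No vascular cell shared its barcode with a vascular cell of another library, although libraries shared 7 to 32 kept barcodes in pairs and 1 CS vascular cell carried a barcode also kept in NEVLP2. The 13 CS cells were too few for ratios against the perfused libraries and their values are given beside the others.

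The genes of the rule chose the cells, so their levels are a description and support nothing. Levels of single cells are UMIs per 10000 UMIs of that cell, and levels of a library are CPM, the counts summed over its vascular cells and scaled to a total of 1000000 UMIs. Vwf had a median of 23.8 per cell in NEVLPcty (highest 103), 12.1 in NEVLP2 (highest 82.9) and 32.4 in CS (highest 190). Selp had a median of 3.12 in NEVLPcty (highest 70.4), 26.5 in NEVLP2 (highest 249) and 2.97 in CS (highest 45.9). Sele had a median of 1.22 in NEVLPcty (highest 56.5), 3.65 in NEVLP2 (highest 146) and 0 in CS (highest 10.4). Cells of all 3 libraries overlapped for Vwf and Selp, and in CS only 23.1% of cells held any Sele. At 2000 UMIs a cell, Vwf was found in 0.481% of leukocyte barcodes of NEVLPcty and 0.282% of those of NEVLP2, and in 0.162% and 0% of hepatocyte barcodes, which gives the level of stray Vwf. Vascular cells, chosen by this gene, held it in 91% and 79.5% at that depth.

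**Figure D1:**
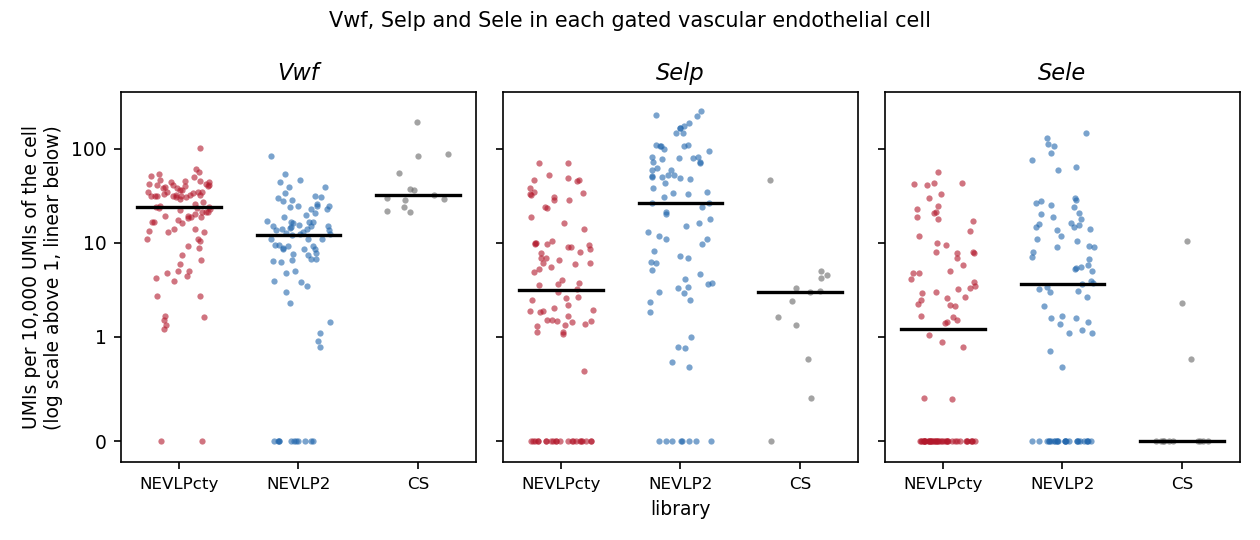
Vwf, Selp and Sele in each of the 90 NEVLPcty, 83 NEVLP2 and 13 CS vascular cells, as UMIs per 10000 UMIs of the cell, with points spread sideways for display. Black lines are medians: for Selp they lie at 3.12 in NEVLPcty, 26.5 in NEVLP2 and 2.97 in CS, and these genes chose the cells.

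The label was checked against markers of other cells. Of 9 platelet and megakaryocyte genes, which matter because platelets also store Vwf and P-selectin, 8 were at 0 in NEVLPcty cells, the exception being 1 UMI of Itga2b, and all 9 were at 0 in NEVLP2 and in CS. Cholangiocyte genes were at 0 in all 3 libraries. Sinusoidal markers were present, at lower levels than in other endothelial cells. The 12 such genes summed to 2271 CPM in NEVLPcty, 1809 in NEVLP2 and 6100 in CS vascular cells. Other endothelial cells held 13019, 8975 and 22989 CPM of them. Lyve1 alone was found in 48 vascular cells of NEVLPcty, 41 of NEVLP2 and 7 of CS. At least 3 of Stab1, Stab2, Lyve1, Clec4g and Mrc1 were found in 14.4% of NEVLPcty, 13.3% of NEVLP2 and 15.4% of CS vascular cells, against 63.6%, 41% and 72% of other endothelial cells. The list of 15 hepatocyte genes summed to 986 CPM in NEVLPcty cells (1 gene at 0, single cells from 0 to 4190), 2296 in NEVLP2 (none at 0, from 168 to 41422) and 870 in CS (5 at 0). The 12 leukocyte genes summed to 82.4 CPM in NEVLPcty (3 at 0, highest cell 985), 182 in NEVLP2 (2 at 0, highest cell 9818) and 103 in CS (8 at 0). The 11 stellate and fibroblast genes summed to 243 CPM in NEVLPcty (5 at 0, highest cell 3023), 97.9 in NEVLP2 (7 at 0, highest cell 2614) and 496 in CS (8 at 0). The 7 smooth muscle genes summed to 16.5 CPM in NEVLPcty (4 at 0), 126 in NEVLP2 (3 at 0, highest cell 8168) and 0 in CS, and 6 mesothelial genes to 6.34, 25.4 and 0 CPM. Lymphatic genes summed to 158 CPM in NEVLPcty, 83.9 in NEVLP2 and 56.1 in CS. The part of these other markers in the results below was not tested.

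Against the other endothelial cells of the same library, vascular cells held more of some matrix, clotting and signalling genes and less of the sinusoidal receptors. A ratio was formed for every gene with at least 50 UMIs over both sets of cells, and a gene past 2-fold is counted as called. In NEVLPcty 728 of 9730 genes were at least 2-fold higher (7.48%) and 1402 at least 2-fold lower (14.4%). In NEVLP2 575 of 7982 genes were at least 2-fold higher (7.2%) and 1334 lower (16.7%). Of those higher, 277 in NEVLPcty and 46 in NEVLP2 rested on fewer than 10 UMIs in vascular cells. The median gene had a log2 ratio of -0.11 in NEVLPcty and -0.16 in NEVLP2, and scaling to it gave 803 genes higher and 1058 lower in NEVLP2, so that 43.1% of calls were higher in place of 30.1%. The rule chose these cells from the same transcripts, so what follows describes them and tests nothing.

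As a list, matrix genes went both ways, with 6 of 22 at least 2-fold higher and 4 lower in NEVLPcty and 4 of 21 higher and 5 lower in NEVLP2. Fbln2, fibulin 2 of the elastic fibre matrix, had 483 CPM in vascular cells of NEVLPcty and 234 in those of NEVLP2, against 8.08 and 2.33 CPM in other endothelial cells, ratios of 59.8 and 100. Eln, which encodes elastin, stood 77.1-fold higher in NEVLPcty and 34.4-fold higher in NEVLP2. The proteoglycan gene Vcan (34.5 and 24.5), the collagen gene Col18a1 (32.6 and 18.2) and Ltbp1, whose product binds latent TGF-β (16.3 and 25.7), were the other matrix genes among the 15 highest. Tm4sf1, a tetraspanin-like surface protein of endothelium, was 18.9-fold and 16.7-fold higher, and the tetraspanin Cd9 was 32.8-fold and 18.7-fold higher. Tm4sf1 was found in 92.2% of vascular cells of NEVLPcty, 84.3% of NEVLP2 and 100% of CS. These genes kept their direction in CS, where Fbln2 was 23.6-fold, Eln 25.8-fold and Tm4sf1 18.7-fold higher in the 13 vascular cells.

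Genes of secreted signals went both ways as well. Of chemokine and cytokine genes 5 of 19 were at least 2-fold higher and 5 lower in NEVLPcty, and 7 of 21 higher and 3 lower in NEVLP2. Of angiogenic and angiocrine genes 5 of 21 were higher and 6 lower in NEVLPcty, and 7 of 22 higher and 7 lower in NEVLP2. Edn1, the precursor of the vasoconstrictor endothelin 1, was 18.8-fold higher in vascular cells of NEVLPcty and 27.9-fold higher in those of NEVLP2, and the endothelin receptor gene Ednrb was 8.3-fold and 12.7-fold higher. Csf3, the neutrophil growth factor G-CSF, was 12.3-fold and 11.9-fold higher. Cx3cl1, the membrane-held chemokine fractalkine, was 18.3-fold and 16.8-fold higher, and Il33, a nuclear alarmin cytokine, 6.78-fold and 6.92-fold. Vegfc, a growth factor for lymphatic vessels, was 13.2-fold and 24.2-fold higher, and Bmp4 was 32.7-fold and 39.1-fold higher. Vcam1, the ligand of leukocyte integrin α4β1, was 6.05-fold and 3.91-fold higher, and 9.65-fold higher in CS. Icam1, the ligand of the β2 integrins, was 1.42-fold higher in NEVLPcty vascular cells and had a ratio of 0.814 in NEVLP2, so its direction differed between the perfused libraries.

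In the coagulation and fibrinolysis list, 7 of 14 genes with 50 UMIs were at least 2-fold higher in NEVLPcty vascular cells and 6 of 14 in NEVLP2, with 1 lower in each. Plat, which encodes tissue plasminogen activator, was 7.75-fold and 15-fold higher. Procr, the endothelial receptor of protein C, was 5.08-fold and 4.66-fold higher. Thbd, thrombomodulin, was 1.12-fold and 1.21-fold higher, near the level of other endothelium. All 3 genes were also higher in the vascular cells of CS, at ratios of 11.8 for Plat, 5.93 for Procr and 1.49 for Thbd.

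Sinusoidal genes were the list with the most members lower. Of 12 sinusoidal genes, 11 were at least 2-fold lower in NEVLPcty vascular cells and 12 in NEVLP2, with median log2 ratios of -2.34 and -2.17. Lyve1, a hyaluronan receptor, had 686 CPM in vascular and 4890 CPM in other endothelial cells of NEVLPcty, a ratio of 0.14, and a ratio of 0.214 in NEVLP2. The Fc receptor gene Fcgr2b had ratios of 0.13 and 0.17, the mannose receptor gene Mrc1 0.159 and 0.152, and Stab2, a scavenger receptor, 0.104 and 0.141. Hmox1, the heme-degrading enzyme that was abundant in perfused endothelium, was also lower in vascular cells, with 5240 CPM against 17097 in other endothelial cells of NEVLPcty and 2730 against 11960 in NEVLP2. Other lists were lower in part. Of interferon response genes 7 of 21 were at least 2-fold lower and 3 higher in NEVLPcty, and 9 of 21 lower and 1 higher in NEVLP2. Of MHC genes 5 of 12 were lower and 0 higher in each. Markers of other cells were also lower: 7 of 14 hepatocyte genes in NEVLPcty and 4 of 15 in NEVLP2, 8 of 9 and 6 of 9 leukocyte genes, and 3 of 3 erythroid genes in each, with 0 of these lists higher.

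**Figure D2:**
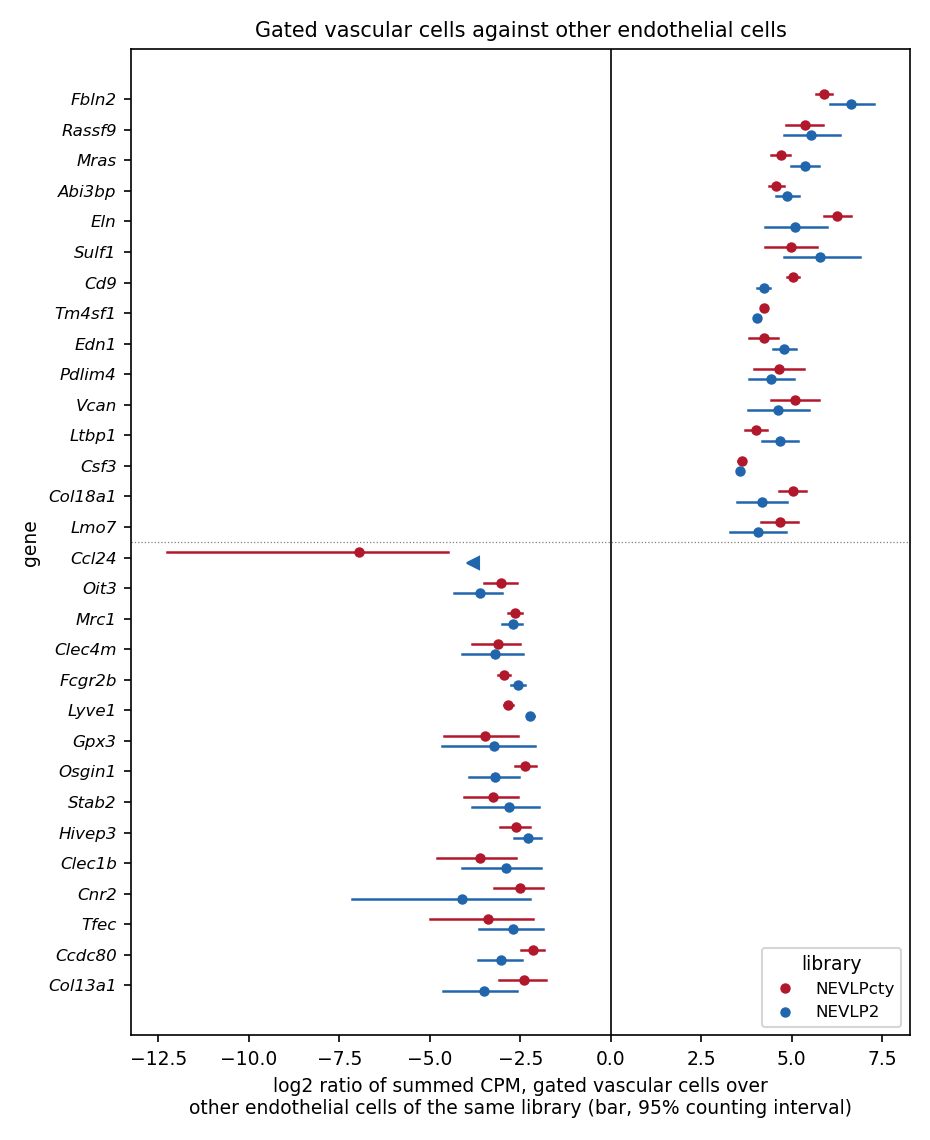
Log2 ratio of summed CPM in vascular cells over other endothelial cells of the same library for the 15 named genes highest (top) and lowest (bottom), with NEVLPcty above NEVLP2 in each row and bars for 95% counting intervals. The left-pointing triangle for Ccl24 in NEVLP2 marks an upper bound from 0 UMIs, and each gene lies on the same side of 0 in both libraries, as its selection required.

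Vascular cells were not uniform, and an arterial gene and a gene of central veins in mouse liver were never found together in 1 cell. Gja5, connexin 40 of arterial endothelium, was found in 21 of 90 vascular cells in NEVLPcty, 5 of 83 in NEVLP2 and 6 of 13 in CS. Rspo3, a Wnt enhancer made by central veins in mouse liver, was found in 27, 24 and 6 cells. At 2000 UMIs a cell, Gja5 was found in 13.5%, 1.28% and 38.5% and Rspo3 in 21.3%, 17.9% and 38.5% of the vascular cells of these libraries. No cell of any library held both. Independent detection would give 6.3 such cells in NEVLPcty, 1.45 in NEVLP2 and 2.77 in CS. The 0 of NEVLP2 and the 0 of CS therefore carry little weight. Among cells without Gja5, Rspo3 was found in 39.1% in NEVLPcty, 30.8% in NEVLP2 and 85.7% in CS. This leaves 42 cells in NEVLPcty and 54 in NEVLP2 with neither gene, and their median depths of 7140 and 8133 UMIs were below those of the Rspo3 cells, 9403 and 11591.5.

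**Figure D3:**
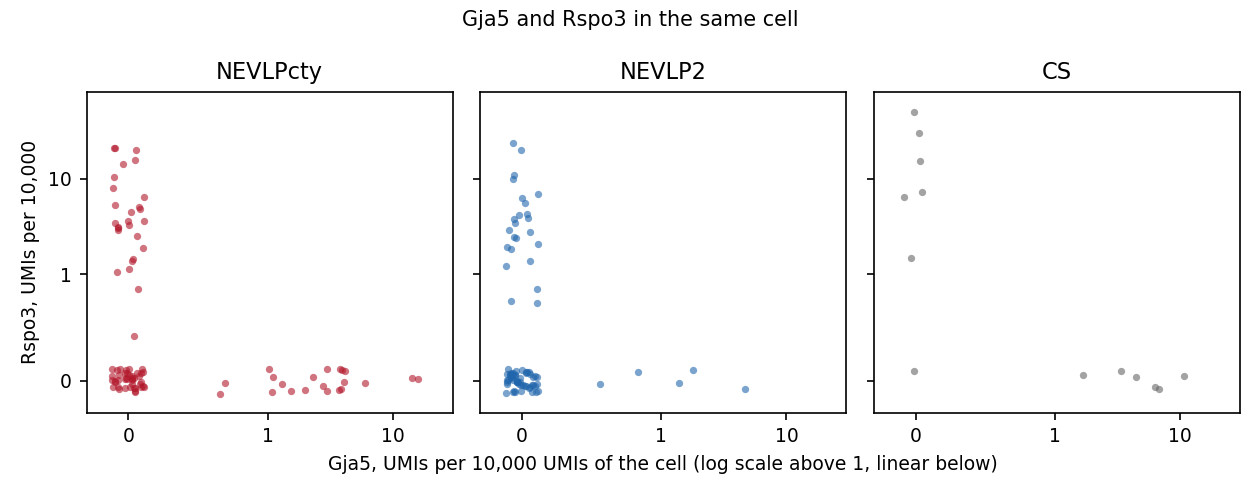
Gja5 on the horizontal and Rspo3 on the vertical axis in each vascular cell of NEVLPcty, NEVLP2 and CS, both as UMIs per 10000 UMIs of the cell, with points spread slightly around their values for display. All cells lie along one axis or at the origin: 21, 5 and 6 cells held Gja5, 27, 24 and 6 held Rspo3, and 0 held both.

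Several genes were unevenly spread over these cells. Ltbp4, a latent TGF-β binding protein of elastic vessels, was found in 100% of Gja5 cells in NEVLPcty, NEVLP2 and CS, against 66.7%, 52.6% and 85.7% of cells without Gja5. Wnt9b, a Wnt ligand of central veins in mouse liver, was found in 44.4% of Rspo3 cells and 9.52% of the others in NEVLPcty, and in 12.5% and 3.39% in NEVLP2. Eln went one way in NEVLPcty, in 42.9% of Gja5 cells and 31.9% of the others, and the other way in NEVLP2 (0% and 15.4%) and CS (50% and 71.4%). Ednrb was found in 100% of Rspo3 cells in both perfused libraries and in 81% of Gja5 cells of NEVLPcty and 100% of those of NEVLP2. Its level was 3191 CPM in Rspo3 cells and 394 CPM in Gja5 cells of NEVLPcty, and 3428 and 585 CPM in those of NEVLP2. Edn1 lay on the other side: in NEVLPcty it was found in 57.1% of Gja5 cells, against 21.7% of cells without Gja5, and in 14.8% of Rspo3 cells, against 36.5% of cells without Rspo3.

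Cytokine transcripts did not share 1 direction. Csf3 was found in 63% of Rspo3 cells and 23.8% of cells without Rspo3 in NEVLPcty, and in 66.7% and 49.2% in NEVLP2, where 80% of the Gja5 cells held it. In summed levels Rspo3 cells had 2956 CPM of Csf3 in NEVLPcty and 9472 CPM in NEVLP2, against 526 and 4467 CPM in Gja5 cells. Ccl7, a monocyte attractant, reached 6002 CPM in Rspo3 cells of NEVLPcty and 11267 CPM in those of NEVLP2, against 347 and 1619 CPM in Gja5 cells. Csf2 lay the other way, with 376 CPM in Gja5 cells and 123 CPM in Rspo3 cells of NEVLPcty, and 1833 and 942 CPM in those of NEVLP2. The 5 Gja5 cells of NEVLP2 are few, and all shares here are counts of detected UMIs in cells of 1 library.

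NEVLPcty over NEVLP2 is the comparison between the perfused livers, over 788683 and 786224 UMIs of vascular cells. More arterial, venous and matrix genes were past 2-fold upward than downward in NEVLPcty, and neutrophil attractants, Plat and Edn1 were lower. Of 3753 genes with at least 50 UMIs over both, 333 were at least 2-fold higher (8.87%) and 168 at least 2-fold lower (4.48%). The median log2 ratio of all these genes was 0.18, and scaling to it gave 220 genes higher and 223 lower, so that 49.7% of calls were higher in place of 66.5%. List medians below are to be read against 0.18. In other endothelial cells the median gene had a log2 ratio of 0.32. Their cytokine, NF-kB, arterial, venous and matrix lists leaned the same way, so those directions are not particular to vascular cells. Of cytokine genes 15 of 22 were at least 2-fold lower there and 1 higher, and of NF-kB genes 6 of 17 lower and 0 higher. Of arterial genes 2 of 11 were higher there, of venous genes 4 of 10 and of matrix genes 5 of 23, with 0 lower in each. Not all lists leaned alike. Of adhesion genes 1 of 10 was at least 2-fold higher there and 3 were lower. In vascular cells 3 of 9 were higher and 0 lower. The shear and vasoactive list had a median log2 ratio of 0.65 there and -0.17 in vascular cells.

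Among adhesion molecules, Vcam1 had a median of 18.8 per cell in NEVLPcty (highest 280) and 14 in NEVLP2 (highest 536), with 3.24 in CS (highest 111). Cells of all 3 libraries overlapped. Summed, Vcam1 came to 3226 CPM in NEVLPcty and 5247 CPM in NEVLP2, with 1460 CPM in CS. Its ratio of NEVLPcty over NEVLP2 was 0.615 (95% interval 0.585 to 0.646), so the sums ran opposite to the medians. Icam1 summed to 1194 CPM in NEVLPcty and 1763 CPM in NEVLP2, a ratio of 0.678, with 318 CPM in CS. In other endothelial cells both genes had lower ratios, 0.397 for Vcam1 and 0.388 for Icam1. Icam2, an adhesion molecule present without stimulation, was 2.57-fold higher in NEVLPcty, and Mcam and Jam3, adhesion molecules of endothelial contacts, were 3.39-fold and 2.3-fold higher. Of 9 adhesion genes 3 were at least 2-fold higher and 0 were lower, with a median log2 ratio of 0.79.

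Windows before the annotated starts of the inducible adhesion genes are shown because NF-kB acts on these genes. Sele is shown as a gene of the rule, and Icam1 and Vcam1 as genes compared above. RefSeq gives them on build GRCr8, and each line is the 250 bases before the annotated start of transcription. Capitals mark the NF-kB pattern GGGNNNNNCC on either strand. Stretches that depart from these letters, such as tggaaattcc before Icam1, stay in lower case. Whether NF-kB binds any marked or unmarked stretch was not tested.
Sele (chr13:78936264-78936513, plus strand): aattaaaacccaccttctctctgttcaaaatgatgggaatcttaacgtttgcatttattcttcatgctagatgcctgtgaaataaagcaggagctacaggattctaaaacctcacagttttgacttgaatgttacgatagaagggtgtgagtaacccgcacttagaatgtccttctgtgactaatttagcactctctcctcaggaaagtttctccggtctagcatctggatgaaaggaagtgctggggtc
Icam1 (chr8:27829595-27829844, plus strand): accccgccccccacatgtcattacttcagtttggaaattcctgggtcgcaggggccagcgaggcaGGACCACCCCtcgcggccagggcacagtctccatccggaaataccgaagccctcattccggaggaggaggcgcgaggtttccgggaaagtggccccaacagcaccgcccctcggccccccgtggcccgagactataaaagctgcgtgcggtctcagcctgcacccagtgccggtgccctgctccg
Vcam1 (chr2:206742784-206743033, minus strand): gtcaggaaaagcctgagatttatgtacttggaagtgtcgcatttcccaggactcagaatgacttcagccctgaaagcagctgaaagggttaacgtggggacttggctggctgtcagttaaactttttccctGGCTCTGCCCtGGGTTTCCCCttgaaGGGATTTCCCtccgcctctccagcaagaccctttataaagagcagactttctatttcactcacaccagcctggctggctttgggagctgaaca
The pattern begins 185 bases before the start of Icam1 and 119, 108 and 93 bases before that of Vcam1, where GGGTTTCCCC and GGGATTTCCC match on both strands. It is common: 47.3% of 33469 RefSeq promoters of 250 bases before to 50 after the start hold it at least 1 time. At least 2 matches were found in 27.7%, where a stretch that matches on both strands counts as 2. Sele holds no match to these letters in its window. The bases right after that window begin with atg, the codon that starts translation, so the window may not hold the Sele promoter. The lack of a match therefore says nothing of that promoter or of the factor. The promoters of Selp and Vwf were not used here.

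Cytokine genes gave the widest list. Of 18 with 50 UMIs, 12 were at least 2-fold lower in NEVLPcty and 1 was higher, with a median log2 ratio of -1.53. Cxcl1, a neutrophil attractant, had a median of 82.1 per cell in NEVLPcty (highest 643) and 294 in NEVLP2 (highest 1472), with 0 in CS (highest 91.9), and a ratio of 0.331 (0.323 to 0.339) in summed CPM. Other cells carried it as well: hepatocyte barcodes had 1938 CPM in NEVLPcty and 3309 in NEVLP2, where vascular cells had 12146 and 36691. Cxcl2 had a ratio of 0.398, Ccl2 of 0.59 and Ccl7 of 0.576. Csf3 was found in 35.6% of vascular cells of NEVLPcty, 54.2% of NEVLP2 and 0% of CS, with 1534 CPM in NEVLPcty and 4911 CPM in NEVLP2, a ratio of 0.312. Csf2, the growth factor GM-CSF, was found in 34.4%, 71.1% and 0% of cells, with 229 and 1044 CPM in the perfused libraries, 4.55-fold lower in NEVLPcty (3.87 to 5.37).

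Rarer cytokines rested on fewer cells. Cxcl10, an interferon-induced T cell attractant, was found in 18.9% of cells in NEVLPcty and 44.6% in NEVLP2, with 122 and 1463 CPM. Il6 had 0 UMIs in NEVLPcty and 129 UMIs in NEVLP2, in 10.8% of cells and with 44.2% of them in 1 cell, which puts it at least 43.1-fold lower in NEVLPcty, taking 3 UMIs as the floor of a 0. Ccl3 and Ccl4, macrophage chemokines, were 7.1-fold and 4.9-fold lower in NEVLPcty vascular cells, and leukocyte barcodes held 1199 CPM of Ccl3 in NEVLPcty and 4777 in NEVLP2, beside 16.5 and 117 CPM in vascular cells. Il33 was 1.28-fold higher in NEVLPcty, with 1778 CPM against 1391 in NEVLP2 and 2152 in CS. Cx3cl1, at 2.87-fold, was the member of the list past 2-fold upward, on 46 UMIs in NEVLPcty and 16 in NEVLP2.

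NF-kB subunits and feedback inhibitors were closer in level. Of 13 genes 1 was at least 2-fold lower and 0 were higher, with a median log2 ratio of -0.48. The lower gene was the subunit gene Nfkb1, with 486 CPM in NEVLPcty, 1099 CPM in NEVLP2 and 159 CPM in CS. Nfkbia, the inhibitor that NF-kB induces, had 5976 CPM in NEVLPcty and 7041 in NEVLP2, a ratio of 0.849. Sod2, the mitochondrial superoxide dismutase and another NF-kB target, had 5445 CPM in NEVLPcty, 11476 in NEVLP2 and 561 in CS, and was 2.11-fold lower in NEVLPcty.

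Genes of the clotting balance split by function. Plat had a median of 5.41 per cell in NEVLPcty (highest 147) and 20.8 in NEVLP2 (highest 201), with 0.823 in CS (highest 17.8), and was 3.71-fold lower in NEVLPcty (3.46 to 3.99). In other endothelial cells its ratio was 0.52. Tfpi2 and Tfpi, which inhibit tissue factor and related proteases, had ratios of 0.351 and 0.458. The anticoagulant receptors ran slightly upward, Procr with 6740 CPM in NEVLPcty against 5126 in NEVLP2 (1.31-fold, 1.26 to 1.37) and Thbd 1.3-fold. Gas6, a vitamin K-dependent ligand of TAM receptors, was 4.39-fold higher in NEVLPcty (3.13 to 6.29), found in 74.4% of cells in NEVLPcty, 30.1% in NEVLP2 and 100% in CS. Over the list 1 of 14 genes was at least 2-fold higher and 5 were lower, with a median log2 ratio of 0.06.

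Of 10 shear-responsive and vasoactive genes, 2 were at least 2-fold higher in NEVLPcty and 2 lower. Klf4, a transcription factor that flow induces, had 327 CPM in NEVLPcty, 150 in NEVLP2 and 2021 in CS, and its 2.18-fold ratio stood beside 1.13 in other endothelial cells. Klf2, its close relative, had 3 UMIs in NEVLPcty, 4 in NEVLP2 and 17 in CS, too few to compare. Nos3, endothelial nitric oxide synthase, was 1.75-fold higher and Ramp2, a co-receptor of adrenomedullin, 2.83-fold higher in NEVLPcty. Edn1 was 3.11-fold lower (2.4 to 4.08), found in 30% of cells in NEVLPcty, 54.2% in NEVLP2 and 46.2% in CS, while its receptor gene Ednrb had a ratio of 0.819. Ptgs2, cyclooxygenase 2, was lower on 14 UMIs in NEVLPcty against 123 in NEVLP2.

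Arterial genes included 4 of 9 at least 2-fold higher in NEVLPcty and 1 lower. Gja5 had 90 CPM in NEVLPcty, 10.2 in NEVLP2 and 262 in CS, 8.85-fold higher in NEVLPcty (4.25 to 21.3), and since it was found in 23.3% of cells against 6.02%, more of its cells or more of its RNA in each cannot be told apart. Other endothelial cells held 2.23 CPM in NEVLPcty and 0.173 CPM in NEVLP2. Sox17, an arterial transcription factor, had a median of 2.04 per cell in NEVLPcty (highest 55) and 0 in NEVLP2 (highest 14.9), with 2.3 in CS (highest 24.7), and was 3.82-fold higher in NEVLPcty, against 1.82-fold in other endothelial cells. Notch1 was 2.62-fold and Ltbp4 2.91-fold higher, and Jag1, a Notch ligand, was 2.08-fold lower. The venous and pericentral list had 2 of 8 genes at least 2-fold higher, Ephb4, the venous ephrin receptor, at 3.63-fold and Wnt9b at 8.97-fold on 45 and 5 UMIs. Rspo3, in near-equal shares of cells, was 1.37-fold higher and Nr2f2, a factor of venous identity, 1.52-fold.

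TGF-β and IL-10 pathway genes bear on the cytokines named in the design. Of 11 TGF-β and BMP response genes 1 was at least 2-fold higher in NEVLPcty and 2 lower, with a median log2 ratio of -0.05 that turned positive under 3 alternatives (up to 0.31). The higher one was Smad7, the feedback inhibitor of the receptor, with 199 CPM in NEVLPcty, 73.8 in NEVLP2 and 337 in CS, 2.7-fold higher in NEVLPcty (1.98 to 3.71). Its ratio in other endothelial cells was 1.8. Pmepa1, another feedback gene, was 1.42-fold higher, and Smad6, an inhibitor of the BMP branch, had 9 UMIs in NEVLPcty and 0 in NEVLP2. Id1 and Id3, targets of BMP signals, had ratios of 0.966 and 0.808. Of the lower pair, Acta2, smooth muscle actin, owed 85 UMIs to 1 cell of NEVLP2, and Angptl4 had 22 UMIs in NEVLPcty against 53 in NEVLP2. Among 5 receptors 1, the betaglycan gene Tgfbr3, was higher at 2.64-fold, and the co-receptor gene Eng was 1.81-fold higher.

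The IL-10 receptor chain gene Il10ra had 0 UMIs in NEVLPcty, 1 in NEVLP2 and 0 in CS, and the shared chain gene Il10rb had 13, 24 and 5. Of 8 genes of the IL-10 receptor and STAT3 list 0 were at least 2-fold higher and 3 lower, with a median log2 ratio of -0.67. The lower genes were the cytokine signal inhibitors Socs1 (ratio 0.225) and Socs3 (0.355) and the oncostatin M receptor Osmr (0.348). Socs3, which STAT3 induces, was found in 13.3% of cells in NEVLPcty, 37.3% in NEVLP2 and 23.1% in CS. Stat3 itself had 470 CPM in NEVLPcty and 553 in NEVLP2.

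Of 9 interferon response genes 0 were at least 2-fold higher in NEVLPcty and 3 lower, with a median log2 ratio of -0.59, where other endothelial cells had 16 of 22 lower and a median of -1.61. Gbp2, an interferon-induced GTPase, had a ratio of 0.665 in vascular cells and 0.115 in other endothelial cells. Put as levels, vascular cells held 394 CPM of Gbp2 in NEVLPcty and 593 in NEVLP2, and other endothelial cells 17 and 148. The lower genes were the transcription factor gene Irf1, with 97.6 CPM in NEVLPcty, 309 in NEVLP2 and 618 in CS, and Rtp4 and Gbp5. Outside the list, the interferon-inducible GTPase genes Ifi47 and Igtp were 6.27-fold and 6.24-fold lower in NEVLPcty. Of 12 MHC genes 0 were higher and 4 lower (Tap1, Cd74, RT1-Ba and RT1-Da), and leukocyte barcodes held 29612 CPM of Cd74 in NEVLPcty and 23258 in NEVLP2, beside 91.3 and 216 CPM in vascular cells. The list's median log2 ratio of -0.17 turned positive when Vwf was required of every cell (0.020).

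Matrix genes were higher in 6 of 15 cases at the 2-fold mark and lower in 0, with a median log2 ratio of 0.56. Of stellate and fibroblast markers, both with 50 UMIs were higher in NEVLPcty as well: the collagen gene Col3a1 at 2.31-fold and Hgf, hepatocyte growth factor, at 6.41-fold. The part of such cells in the matrix result was not tested. Sparc, a matrix glycoprotein, had a median of 6.5 per cell in NEVLPcty (highest 25.1), 0.618 in NEVLP2 (highest 14.8) and 19.6 in CS (highest 34). Its summed levels were 829 CPM in NEVLPcty and 224 CPM in NEVLP2, a ratio of 3.7 (3.13 to 4.4). Eln was 3.8-fold, the proteoglycan gene Bgn 3.31-fold and Fbln2 2.06-fold higher. Bgn had a ratio of 0.968 in other endothelial cells, below its interval in vascular cells of 2.64 to 4.17. All 4 genes had their highest level in CS, with 1881 CPM of Sparc, 1207 of Eln, 533 of Bgn and 702 of Fbln2.

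**Figure D4:**
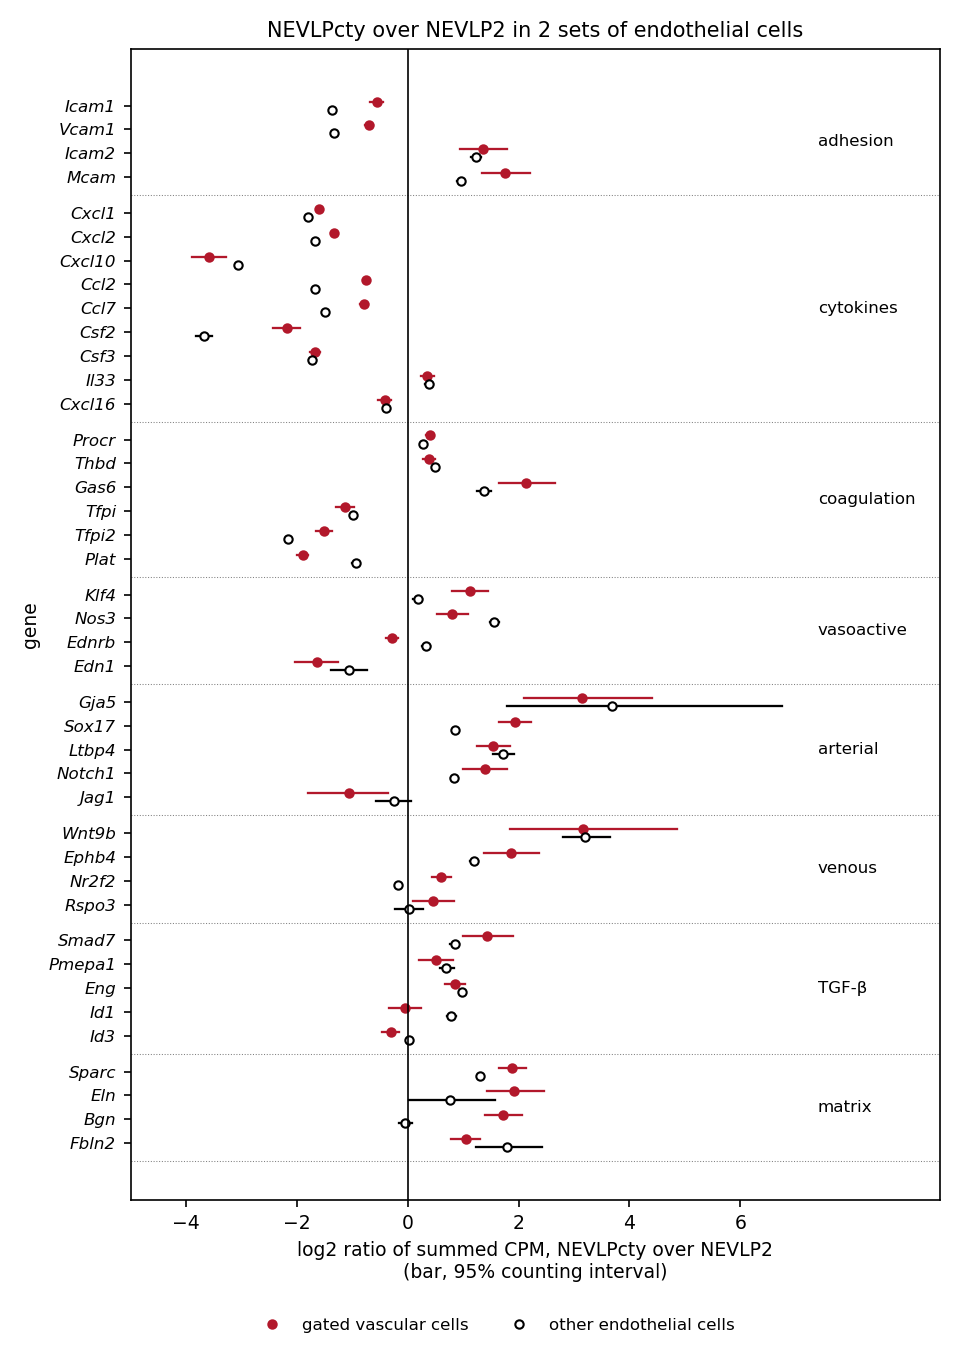
Log2 ratio of summed CPM, NEVLPcty over NEVLP2, for selected list genes by role in vascular cells (filled red, upper point of each row) and other endothelial cells (open black, lower point), with bars for 95% counting intervals. Cxcl1, Csf2 and Plat lie left of 0 and Gja5, Sox17, Gas6 and Sparc right of 0 in both sets of cells, and Bgn lies right of 0 in vascular cells alone.

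Angiogenic and angiocrine genes went both ways, with 6 of 16 at least 2-fold higher in NEVLPcty and 4 lower. Tek and Tie1, the angiopoietin receptor and its partner, were 2.87-fold and 2.14-fold higher, and the growth factor genes Pdgfa and Pdgfb had ratios of 0.289 and 0.375. The list's median log2 ratio of 0.22 was near that of all genes. Sinusoidal genes, low in these cells, had 4 of 8 higher (Oit3, Gpr182, Dnase1l3 and Gata4) and 0 lower, with a median of 1.03 beside 0.94 in other endothelial cells. That median ran from 0.20 to 1.65 over the alternatives, lowest with the rule applied after thinning.

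Heat shock genes had 3 of 11 at least 2-fold higher and 0 lower. Hspb1, a small heat shock protein, was 7.92-fold higher in NEVLPcty in vascular cells and 1.06-fold in other endothelial cells, but 1 cell held 55.7% of its UMIs in NEVLPcty, and its median per cell was 1.99 in NEVLPcty and 0.645 in NEVLP2. Hsph1, at 4.49-fold, likewise had 57.5% of its UMIs in 1 cell. Hmox1 was 1.92-fold higher in NEVLPcty, with 5240 CPM, against 2730 in NEVLP2 and 46.8 in CS. Of 17 immediate early genes 2 were at least 2-fold higher and 3 lower. Dusp1 and Egr1 were 3.12-fold and 2.13-fold higher, with 2517 and 1750 CPM in CS, and Atf3, Nr4a1 and Nr4a3 were 2.52-fold, 2.62-fold and 2.24-fold lower. Of 8 glucocorticoid response genes 0 were higher and 3 lower. Ddit4, one of them, was 3.52-fold lower in NEVLPcty, with 441 CPM, against 1554 in NEVLP2 and 1085 in CS, and Cebpd 3.38-fold lower. Of 10 unfolded protein and integrated stress genes 0 were past 2-fold either way.

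By the interval bound nearest a ratio of 1, the 15 genes highest in NEVLPcty were Cyp1a1, Nrgn, Abi3, Gja5, Igfbp4, Elk3, Wnt9b, Crip2, Anp32a, Osgin1, Akr1c15, Tpra1, Slc9a3r2, Sox17 and Sparc. Cyp1a1, a cytochrome P450 of the aryl hydrocarbon response, had 128 UMIs in 11.1% of NEVLPcty cells and 0 UMIs in NEVLP2 and CS, at least 42.5-fold higher than a floor of 3 UMIs in NEVLP2. Nrgn was 35.2-fold higher on 106 UMIs in NEVLPcty against 3 in NEVLP2, and Igfbp4, an insulin-like growth factor binding protein, 5.57-fold with 290 CPM against 52.1. Besides Csf2, Plat, Ccl3, Ccl4, Ifi47, Igtp, Cebpd and Ddit4, the 15 lowest by the same bound were Nts, Lcn2, Rgs16, Rida, Csf1, March3 and Pmaip1. Lcn2, the iron-trapping lipocalin 2, was found in 21.1% of cells in NEVLPcty and 50.6% in NEVLP2 and was 7.3-fold lower, and Csf1, the macrophage growth factor, was 4.67-fold lower. Nts, the neuropeptide neurotensin, was 7.57-fold lower, in 4.44% of NEVLPcty cells and 15.7% of NEVLP2 cells, and 1 cell held 85.4% of its UMIs in NEVLPcty. Rida is a hepatocyte-rich gene, at 7044 CPM in hepatocyte barcodes of NEVLPcty and 6289 in those of NEVLP2, and 7 of 9 hepatocyte genes were at least 2-fold lower in NEVLPcty vascular cells.

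The 13 CS cells were set beside the genes that separated the perfused libraries. Of the 333 genes at least 2-fold higher in NEVLPcty than in NEVLP2, 301 had a higher CPM in CS than in NEVLP2 (90.4%) and 212 a higher CPM in CS than in NEVLPcty (63.7%). Over all 3753 genes these shares were 50% and 43.9%. Of the 168 genes at least 2-fold lower in NEVLPcty, 21 were higher in CS than in NEVLP2 (12.5%) and 69 higher in CS than in NEVLPcty (41.1%). The comparisons share the NEVLP2 and NEVLPcty values, which were used to choose the genes, so a share apart from 50% follows in part from the choice. Inflammatory transcripts were low in CS vascular cells, with 0 UMIs of Cxcl2, Csf2, Csf3 and Il6 and 1 UMI each of Ccl2 and Ccl7, while Vcam1 at 1460 CPM and Gja5 at 262 CPM were present.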

How the data were processed

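Counts of UMIs per gene and barcode in 4 rat liver libraries were the values deposited by the authors. The file headers name Cell Ranger 6.0.0 and the submitters' processing notes name Cell Ranger 2.1.1. No genome build is named in these sources. Kept barcodes held 23304511 to 72018830 UMIs per library.

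The cells and the gene lists were chosen with earlier results of these data known. Counts were summed over the chosen cells of each library, scaled to 1000000 (CPM) and set as ratios. Ratios carry exact conditional binomial 95% intervals (scipy 1.17.1 and numpy 2.4.6 under Python 3.11.15). The intervals were also run on simulated counts with counting error alone, which is what they assume. Those counts held no spread between cells, so the run could not test that spread. With 1 library per group no p-value was formed, and a gene was called past 2-fold with at least 50 UMIs over both sides. A 0 was set at a floor of 3 counts, and where that floor exceeded the level on the other side no direction was given, for 411 genes in NEVLPcty. Rates across depths were taken after thinning to 2000 UMIs. Doublets were scored with Scrublet in scanpy 1.11.5 and kept, an alternative leaving out the highest scores (0.8% of barcodes per 1000).

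Leukocyte barcodes held Ptprc and at least 2 of Coro1a, Laptm5, Cd53 and Rac2, and hepatocyte barcodes at least 4 of 8 hepatocyte genes. Named genes are those of the lists and, by comparison, the 15 highest and 15 lowest by the interval bound nearest 1, with a UMI in at least 10% of cells and no cell holding over 25% of UMIs in the higher library, leaving out markers of other cells, rule, mitochondrial and ribosomal genes. Ratios of NEVLP2 over CS were not formed, since CS had fewer than 50 cells, and CS levels are only set above or below the perfused ones. Alternatives changed the mitochondrial and UMI limits, the rule, the scaling, the weighting of cells and the gene minimum.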

Additional observations from a re-analysis of the deposited data

How the results depend on the processing

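No paired analysis was possible because each group is 1 library and the labels give no replicate numbers. Dropping Sele from the rule (Vwf and Selp both required) gave shares of 0.568% in NEVLPcty and 0.628% in NEVLP2, and applying the rule after thinning to 2000 UMIs gave 0.557% in NEVLPcty. For NEVLPcty over NEVLP2, the genes 2-fold higher numbered 218 with the thinned rule, 220 with scaling to the median gene, 1208 at a minimum of 10 UMIs and 72 at 200 UMIs, and those lower 465 and 63 at these minimums. For vascular over other endothelial cells, the genes higher numbered 1305 in NEVLPcty and 992 in NEVLP2 at 10 UMIs, and 385 and 303 at 200 UMIs, where 685 were lower in NEVLP2. At 20 CPM over both sets of cells, a minimum chosen after seeing the data, 171 were higher and 582 lower in NEVLPcty and 264 higher and 596 lower in NEVLP2. A higher minimum tests fewer genes by construction; the cause of the other changes was not tested. For NEVLPcty over NEVLP2, the median log2 ratio of the MHC list turned to 0.020 with Vwf required, 0.073 with Vwf and Selp required and 0.20 with the thinned rule. The thinned rule also turned Id3 to 0.12, the TGF-β and BMP receptors to -0.015 and the angiogenic list to -0.10. Values near 0 also crossed it: the TGF-β and BMP response median ran from -0.23 to 0.31, Id1 from -0.23 to 0.34 and the coagulation median from -0.39 to 0.17. With it, Hspb1 had a log2 ratio of 1.51 in place of 2.99. Alternatives for NEVLP2 over CS were not run. Depth limits genes such as Klf2 and Il10ra, with under 5 UMIs in the vascular cells of each perfused library.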
